A study of Saccharomyces cerevisiae with 4 samples.

Results

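The mitochondrial ribosome of budding yeast is built from nuclear-encoded proteins made in the cytosol, a single protein encoded by mitochondrial DNA, and ribosomal RNA that is also encoded there. The genes examined were 52 nuclear genes named MRPL, MRP, MRPS or RSM, all outside chromosome III and the right arm of chromosome VII, taken as a fixed list of systematic names from the 6256 gene probes of the array. The list does not hold every gene of such a name, and MRPS12, RSM18, RSM19, RSM23, RSM28, MRP10 and MRP49 are among those counted apart. Of these, 19 code for the small subunit and 33 for the large subunit. MRP7 and MRP20 belong to the large subunit despite their prefix. The small subunit binds the messenger RNA and decodes it, and the large subunit joins the amino acids and releases the chain at the inner mitochondrial membrane. In yeast these ribosomes make a handful of proteins, nearly all of them subunits of the respiratory chain and of ATP synthase, and cells that lose them can still grow by fermentation on glucose.

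The study compared 4 biological replicates of the Saccharomyces cerevisiae strain D10 Small, a translocant, with 1 pool of its parent, WT San I. The cultures were harvested from YPD, a rich medium with glucose, at an optical density of 0.4 to 0.5, and only D10 Small was given kanamycin, at 200 mkg/ml. On each of 4 two-colour arrays, Cy3-labelled RNA of 1 D10 Small replicate was hybridised with Cy5-labelled RNA of the pool, without a dye swap. Strain, kanamycin and dye cannot be told apart, and how the pool was made is not given in the labels. The pool counts as 1 control sample, so the tests carry no spread between WT San I cultures.

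Median spot intensities over the gene probes were 304 to 444 for D10 Small and 120.4 to 261 for the pool. The share of gene probes above background was 91.8% to 93.2% for D10 Small and 86.0% to 89.1% for the pool. All 52 genes were above background in both channels on all 4 arrays, so none was lost to the filter on dim probes, which left 5794 genes for testing. Ratios over these genes correlated between arrays with Pearson's r of 0.975 to 0.990. Among lists that mark mating type, D10 Small had higher levels of 10 of 10 haploid-specific and 7 of 7 a-specific genes. In the pool 4 of each list were not above background on any array, and RME1, MFA1 and ASG7 only on 1, 1 and 2. Of 4 alpha-specific genes 2 were tested, and both were higher in D10 Small. STE3, 1 of them, passed background in the pool on no array. Genes this dim in the pool entered the tests through D10 Small alone, so the filter favoured the higher direction in these counts. Over all genes tested 43.2% were higher. The part of mating type in the ribosomal protein results was not tested.

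Messenger RNAs for the mitochondrial ribosome were more abundant in D10 Small than in the pool for most of the genes. Of the 52 genes, 45 were higher in D10 Small at limma's Benjamini-Hochberg adjusted p under 0.05, against 43.2% of all genes tested. The 3 lower genes were MRPL33, MRPL35 and RSM26 (MRPL33 alone under median centring), against 39.5% lower among all genes tested, and MRPL4, MRPL10, MRPL49 and MRPS8 did not pass. The median log2 ratio of D10 Small over the pool was 0.53 over the 52 genes and 0.022 over all genes tested. It was 0.57, 0.55, 0.49 and 0.54 on the 4 arrays (SD 0.035, n = 4), against 0.026, 0.021, 0.019 and 0.018 for all genes. The quartiles were 0.15 and 0.74 for the 52 genes and -0.28 and 0.35 for all genes.

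The shift was broad and mostly modest. Only MRPS16 and MRP51 were at least 2-fold higher in D10 Small, against 6.23% of all genes tested, and none was 2-fold lower, against 3.05%. The count of at least 2-fold higher genes was 4 without background correction, 8 under median centring, 5 from the scanner's net ratios and 6 from the authors' deposited table. The ratio was positive on all 4 arrays for 46 of the 52 genes, against 45.7% of all genes, and negative on all 4 for 3, against 41.5%. Ranked among all genes tested, the 52 ran from percentile 32.6 to percentile 97.1, and 33 of them (63.5%) were above the upper quartile. Their spread between arrays was small, with SDs from 0.019 to 0.18 and a median of 0.063. Adjusted p-values of the 45 higher genes ran from 2.13e-07 to 0.0461 (limma).

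**Figure D1:**
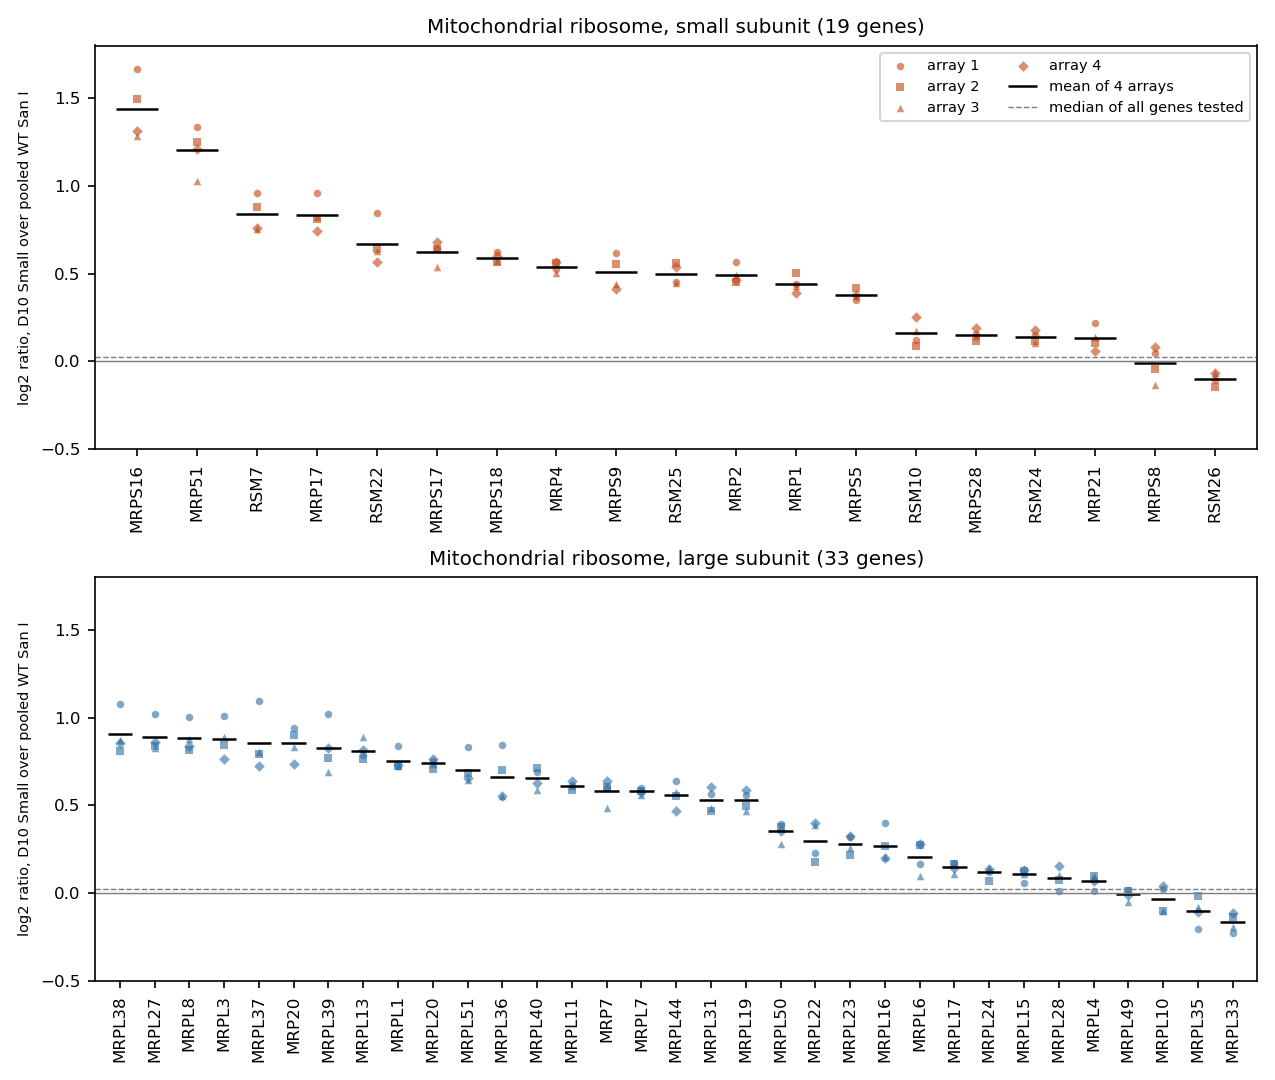
Log2 ratio of D10 Small over the WT San I pool for each of the 52 genes, small subunit first and then large subunit, with 1 point per array and the mean of the 4 arrays. Most genes lie above 0 on every array in both subunits, MRPS16 and MRP51 lie highest, and MRPL33 lies lowest.

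In the small subunit, 17 of 19 genes were higher in D10 Small, RSM26 was lower and MRPS8 did not pass. The median log2 ratio was 0.50 and the range ran from -0.098 to 1.44. MRPS16 (YPL013C), the homologue of bacterial ribosomal protein S16, was the highest of the 52. Its background-corrected, loess-normalised signal, which includes an offset of 50, was 2896, 1957, 1531 and 1349 in D10 Small on arrays 1 to 4, against 912, 695, 629 and 542.6 in the pool. D10 Small was above the pool on every array, and the lowest D10 Small value was above the highest pool value. The log2 ratios were 1.67, 1.49, 1.28 and 1.31, with a mean of 1.44 ± 0.18 (SD, n = 4), a fold of 2.71 and limma's adjusted p of 3.37e-07.

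MRP51 (YPL118W), a small-subunit protein linked to translation of the COX2 and COX3 messages, came next. Its signal was 3497, 2453, 2059 and 1731 in D10 Small, against 1386, 1033, 1009 and 748 in the pool. The groups did not overlap, and its log2 ratios were 1.34, 1.25, 1.03 and 1.21, a mean of 1.21 ± 0.13 (SD, n = 4), 2.31-fold, with limma's adjusted p of 2.52e-07. MRPS16 and MRP51 both lie on the left arm of chromosome XVI, whose 268 tested genes had a median log2 ratio of 0.14.

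The next 4 small-subunit genes had means between 0.63 and 0.84. RSM7 (YJR113C), the S7 homologue, which binds ribosomal RNA early in assembly in bacteria, had log2 ratios of 0.96, 0.88, 0.75 and 0.76 (mean 0.84 ± 0.10, SD, n = 4, limma's adjusted p = 6.68e-07). MRP17 (YKL003C), the S6 homologue, had 0.96, 0.81, 0.82 and 0.74 (mean 0.83 ± 0.09, SD, n = 4, limma's adjusted p = 5.46e-07). These genes were higher on each array, and their replicate values overlapped one another. RSM22 (YKL155C), a small-subunit component that resembles methyltransferases, had 0.85, 0.64, 0.63 and 0.57 (mean 0.67 ± 0.12, SD, n = 4, limma's adjusted p = 4.49e-06). MRPS17 (YMR188C), the S17 homologue, had 0.64, 0.64, 0.54 and 0.68 (mean 0.63 ± 0.06, SD, n = 4, limma's adjusted p = 1.06e-06).

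MRP4 (YHL004W), the S2 homologue, is the only one of the 52 on the left arm of chromosome VIII, where 31 of 46 tested genes were higher in D10 Small and the arm's median was 0.32. Its log2 ratios were 0.53, 0.56, 0.50 and 0.56 (mean 0.54 ± 0.03, SD, n = 4, limma's adjusted p = 1.12e-06). The values on the 4 arrays were close together. The 20 tested genes nearest to MRP4 along the whole chromosome had a median of -0.055. The part of the arm in the ratio of MRP4 was not tested. Without MRP4, 44 of 51 genes were higher and the median was 0.53.

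At the low end of the small subunit, MRP21 (YBL090W), the S21 homologue, had log2 ratios of 0.22, 0.11, 0.14 and 0.062 (mean 0.13 ± 0.07, SD, n = 4, limma's adjusted p = 0.00897). It did not pass in the scanner's own net ratio, where its mean was 0.10 (limma's adjusted p = 0.136). MRPS8 (YMR158W), the S8 homologue, had 0.050, -0.044, -0.14 and 0.083 (mean -0.012 ± 0.099, SD, n = 4, limma's adjusted p = 0.798), with signs that differed between arrays, and median centring put it at 0.22. RSM26 (YJR101W), related to superoxide dismutases, had -0.11, -0.15, -0.069 and -0.067 (mean -0.098 ± 0.038, SD, n = 4, limma's adjusted p = 0.0182). Its call was lost without array 2, where the mean was -0.082 (limma's adjusted p = 0.113), and under median centring it was -5.38e-05. The remaining 9 genes of the small subunit were all higher, with means from 0.14 to 0.59. They were MRPS18 at 0.59, MRPS9 at 0.51, RSM25 at 0.50, MRP2 at 0.49, MRP1 at 0.44, MRPS5 at 0.38, RSM10 at 0.16, MRPS28 at 0.15 and RSM24 at 0.14. For MRP2 the scanner's net ratio gave 0.91 and the authors' deposited table gave 0.83.

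In the large subunit, 28 of 33 genes were higher in D10 Small, MRPL33 and MRPL35 were lower, and MRPL4, MRPL10 and MRPL49 did not pass. The median log2 ratio was 0.56, the range ran from -0.17 to 0.90, and no gene reached 2-fold in this processing. MRPL38 had 1.06 and MRPL39 1.10 without background correction, and 1.14 and 1.35 in the scanner's net ratio. The highest was MRPL38 (YKL170W), the L14 homologue, which lies at the interface with the small subunit in bacteria. Its log2 ratios were 1.08, 0.81, 0.87 and 0.86 (mean 0.90 ± 0.12, SD, n = 4, 1.87-fold, limma's adjusted p = 7.65e-07). MRPL27 (YBR282W), a protein with no bacterial homologue, had 1.02, 0.84, 0.83 and 0.86 (mean 0.89 ± 0.09, SD, n = 4, 1.85-fold, limma's adjusted p = 4.13e-07). MRPL8 (YJL063C), the L17 homologue, had 1.01, 0.82, 0.88 and 0.84 (mean 0.88 ± 0.09, SD, n = 4, 1.84-fold, limma's adjusted p = 3.63e-07). In all 3 genes array 1 was the highest and the other 3 arrays were close together.

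MRPL3 (YMR024W), which carries a fold related to ribonuclease III, had log2 ratios of 1.01, 0.84, 0.89 and 0.76 (mean 0.88 ± 0.10, SD, n = 4, limma's adjusted p = 6.04e-07). MRPL37 (YBR268W), a protein found only in mitochondrial ribosomes, had 1.09, 0.79, 0.80 and 0.73 (mean 0.85 ± 0.16, SD, n = 4, limma's adjusted p = 3.73e-06). MRP20 (YDR405W), the L23 homologue at the exit of the peptide tunnel, had 0.94, 0.90, 0.83 and 0.74 (mean 0.85 ± 0.09, SD, n = 4, limma's adjusted p = 4.76e-07). The means of these 6 large-subunit genes differed from one another by less than their SDs between arrays, so their order is not resolved. Over the 52 genes, array 1 gave the highest ratio for 25 and array 4 for 19. Over the 2503 genes called higher, array 1 gave the highest ratio for 58.2% and array 4 for 11.3%.

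At the low end of the large subunit, MRPL33 and MRPL35 were the lowest of the 52, with RSM26 of the small subunit next at -0.098. MRPL10 (YNL284C), the L15 homologue, had log2 ratios of 0.021, -0.10, -0.10 and 0.042 (mean -0.035 ± 0.077, SD, n = 4, limma's adjusted p = 0.402). MRPL35 (YDR322W), which has no bacterial homologue, had -0.20, -0.015, -0.081 and -0.11 (mean -0.10 ± 0.08, SD, n = 4, limma's adjusted p = 0.0355). That call was lost without array 1 (mean -0.068), array 3 (-0.11) or array 4 (-0.10), with limma's adjusted p from 0.0766 to 0.10. It was also lost in the authors' deposited table (-0.10, limma's adjusted p = 0.0622) and with all spots kept (-0.094, limma's adjusted p = 0.0553). Median centring turned the ratio of MRPL35 to 0.071.

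MRPL33 (YMR286W), the L30 homologue, was negative on every array, at -0.23, -0.13, -0.19 and -0.12 (mean -0.17 ± 0.05, SD, n = 4, limma's adjusted p = 0.00169). Its signal was the dimmest of the 52, at 68.3, 65.2, 63.5 and 63.3 in D10 Small, against 80.0, 71.5, 72.5 and 68.7 in the pool, values that include the offset of 50. The groups did not overlap, though the highest D10 Small value was close to the lowest pool value. The size of its ratio differed between processings, with -0.40 without background correction, -0.60 under median centring and -1.45 in the scanner's net ratio.

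The other 24 genes of the large subunit ran from -0.007 to 0.83, of which 22 were higher and none was lower. From 0.70 up stood MRPL39 at 0.83, MRPL13 at 0.81, MRPL1 at 0.76, MRPL20 at 0.74 and MRPL51 at 0.70. Between 0.5 and 0.7 stood MRPL36 at 0.66, MRPL40 at 0.65, MRPL11 at 0.61, MRP7 at 0.58, MRPL7 at 0.58, MRPL44 at 0.56, MRPL31 at 0.53 and MRPL19 at 0.53. Lower were MRPL50 at 0.35, MRPL22 at 0.30, MRPL23 at 0.28, MRPL16 at 0.27, MRPL6 at 0.20, MRPL17 at 0.15, MRPL24 at 0.12, MRPL15 at 0.11 and MRPL28 at 0.086. Of these, MRPL15 lost its call without array 2 (0.0999, limma's adjusted p = 0.0686). MRPL28 lost it without array 2, 3 or 4, at means of 0.089, 0.081 and 0.063, and also without background correction (0.085), in the net ratio (0.047), in the authors' deposited table (0.094) and with median spot signals (0.081). MRPL4 had a mean of 0.069 and did not pass, and without array 1 its mean was 0.088 (limma's adjusted p = 0.0318).

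The subunits were set side by side, since they assemble in equal numbers and differ in the number of genes. The share of genes higher in D10 Small was 89.5% in the small subunit and 84.8% in the large subunit. On each array the small-subunit median minus the large-subunit median was -0.073, 0.0057, -0.040 and -0.11 (mean -0.055 ± 0.051, SD, n = 4). Its sign was not the same on every array and its mean was close to its SD, so the medians of the subunits were not resolved at this precision. The small-subunit median was the lower under every processing, all of which drew on the same 4 arrays. Both genes past 2-fold were in the small subunit, but under each of 4 other processings large-subunit genes, MRPL38 and MRPL39 among them, passed 2-fold too.

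By descent, 35 of the 52 genes have a bacterial homologue, 16 occur only in mitochondrial ribosomes and RSM22 was left unclassified, a sorting made from textbook knowledge. Of the homologues 30 were higher and 1 was lower, around a median of 0.53. Of the mitochondrion-specific genes 14 were higher and 2 were lower, around a median of 0.52. Shares over all genes tested were 43.2% higher and 39.5% lower. Within the small subunit the medians were 0.52 over 14 homologues and 0.29 over 4 mitochondrion-specific genes. Within the large subunit they were 0.53 over 21 homologues and 0.63 over 12 mitochondrion-specific genes.

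Position along the chromosomes was examined because whole arms were shifted in D10 Small. For each gene the 10 nearest tested genes on either side were taken in the gene order of the RefSeq annotation of assembly R64. The medians of these neighbours ran from -0.30 to 0.29 around a median of 0.013. Of the 52 genes, 46 were above the median of their own neighbours, and 46 were above the median of all genes tested. The neighbour count was not taken over all genes, so it has no share to be read against. Not above their neighbours' median were MRPL33, MRPL49, MRPL10, RSM26, MRPL24 and MRPL16. MRPS16 stood 1.36 above its neighbours' median, MRP51 1.16, MRP20 1.02 and MRPL1 1.00, although a next-door gene of MRPL1, MRX14, is itself a mitochondrial ribosomal gene, at 0.39. The genes lie on 19 chromosome arms with medians between -0.14 and 0.32. Across the 52 genes the ratio and the neighbours' median had Pearson's r of 0.25, a description over genes that share the same arrays.

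**Figure D2:**
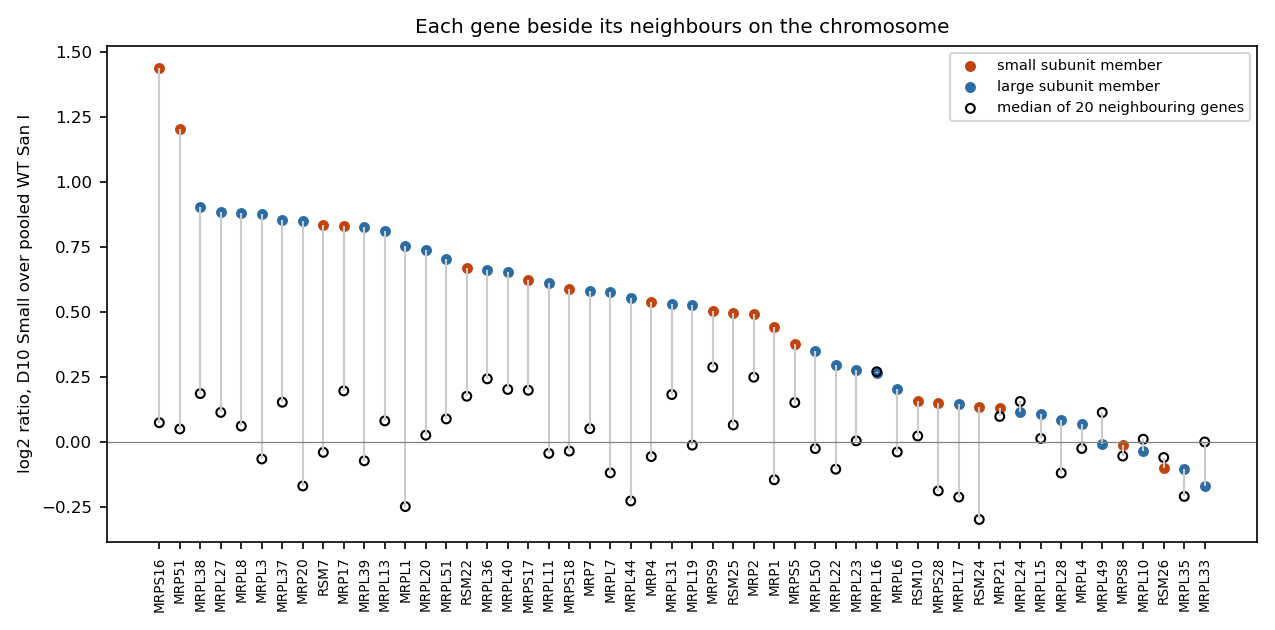
Mean log2 ratio of D10 Small over the pool for each of the 52 genes beside the median of its 20 neighbouring tested genes. Of the 52 genes, 46 lie above their neighbours' median, and the neighbours' medians stay between -0.30 and 0.29.

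The ratio went with the brightness of the probe. Mean log2 signal, averaged over both channels, was computed from the same spots as the ratio and depends on the probe as well as on the RNA. Of 18 genes with a log2 signal below 8, 11 were higher and 3 lower, with a median ratio of 0.12. All 15 genes between 8 and 9 were higher, with a median of 0.53, and so were all 19 at 9 and above, with a median of 0.74. Among all genes tested, 42.0%, 45.2% and 43.4% were higher in these ranges, from dim to bright. For all genes tested the medians in the same ranges, which were chosen after the values were seen, were 0.028, 0.023 and 0.0035. Across the 52 genes Pearson's r between ratio and log2 signal was 0.70 (Spearman's rho 0.67), and across all genes tested r was 0.031. The loess step removes a trend with signal over all genes, so their r and medians were bound to lie near 0. Under median centring, which lacks that step, r was 0.64 over the 52 genes and -0.043 over all genes tested. The r of the 52 genes was 0.58 in the scanner's net ratio and 0.62 without background correction. With gene length r was -0.053. These are descriptions across genes of the same arrays, and the part of signal in the size of the ratio was not tested.

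**Figure D3:**
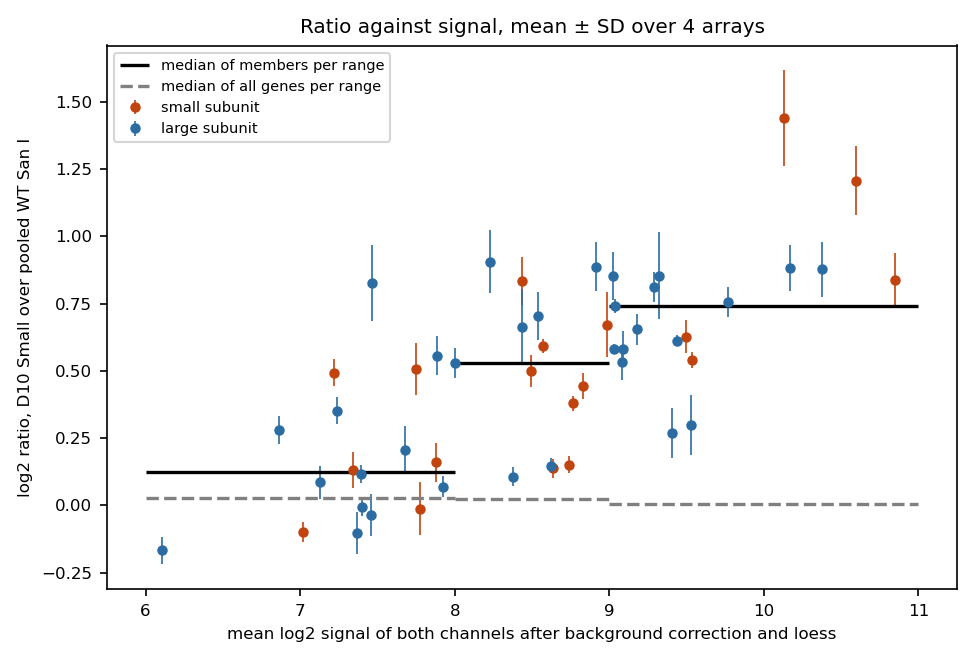
Mean log2 ratio of D10 Small over the pool against mean log2 signal, for genes of the small subunit, genes of the large subunit and all genes tested. The median ratio of the 52 genes was 0.12 below a log2 signal of 8 and 0.74 at 9 and above. Medians of all genes stayed near 0, which the loess step fixes in advance.

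A further 26 mitochondrial ribosomal protein genes on the array were not among the 52. On chromosome III and VII right, where the medians of the arms were -0.81 for III left, -0.31 for III right and -0.49 for VII right, there were 8 of them. IMG1 was higher at 0.40 ± 0.10 and RSM27 did not pass at -0.028. The other 6 were lower, from MRPL32 at -0.39 ± 0.07 and MRP13 at -0.32 ± 0.04 to MRPL9 at -0.10 ± 0.08 (SD, n = 4). Over all genes tested 39.5% were lower and 43.2% higher. MRPL9 lost its call without array 2, 3 or 4, at means of -0.11, -0.086 and -0.075. Under median centring 3 of the 8 were higher and 2 lower. Of these 8 genes, 7 lay above the median of their arm, with MRPL32 the exception, and their own median was -0.12.

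The other 18 lie elsewhere. Of these 16 were higher (88.9%, against 43.2% of all genes tested), EHD3 was lower at -0.68 ± 0.10, and RSM18 did not pass. The median was 0.39 over the 18. MHR1, a large-subunit protein also known for recombination of mitochondrial DNA, was at 1.18 ± 0.11 (SD, n = 4, limma's adjusted p = 1.8e-07). PET123, a small-subunit protein, was at 1.03 ± 0.09 (SD, n = 4, limma's adjusted p = 2.13e-07). EHD3 also resembles enzymes of valine breakdown.

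Genes that work with the mitochondrial ribosome were taken by role. Of 13 aminoacyl-tRNA synthetases of mitochondria, which charge its tRNAs, 11 were higher and 2 lower, and the median log2 ratio was 0.51. Over all genes tested 43.2% were higher and 39.5% lower. MSK1, for lysine, was at 0.96 ± 0.10 and MSE1, for glutamate, at 0.93 ± 0.11, while MSM1, for methionine, was at -0.40 ± 0.06 and DIA4, for serine, at -0.14 ± 0.04 (SD, n = 4), which median centring turned to 0.071. MSE1 lies on XV left and MSM1 on VII right. Leaving out the genes on I left, III, VII right, VIII left and XV left, 9 of 10 were higher, with a median of 0.43.

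Translation factors were mixed, with 5 of 10 higher, 3 lower and a median of 0.15, where 43.2% of all genes were higher and 39.5% lower. Off the same arms 4 of 9 were higher and the median was -0.030. MEF1, the elongation factor that moves the ribosome along the message, was at 1.12 ± 0.08, and MRF1, the release factor, was at 0.79 ± 0.04. MEF2, a related factor that recycles ribosomes, was at -0.59 ± 0.08 and MTG2, a GTPase of the large subunit, at -0.17 ± 0.04 (SD, n = 4). Of 20 translational activators and membrane anchors, 13 were higher and 5 lower, around a median of 0.19. MDM38, which holds ribosomes at the inner membrane, was at 2.01 ± 0.14, and it lies on XV left. CBP3, needed for cytochrome b, was at 0.61 ± 0.06, PET54, an activator of COX3 on VII right, was at -0.37 ± 0.08, and CBS2, an activator of COB, was at -0.36 ± 0.10 (SD, n = 4).

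**Figure D4:**
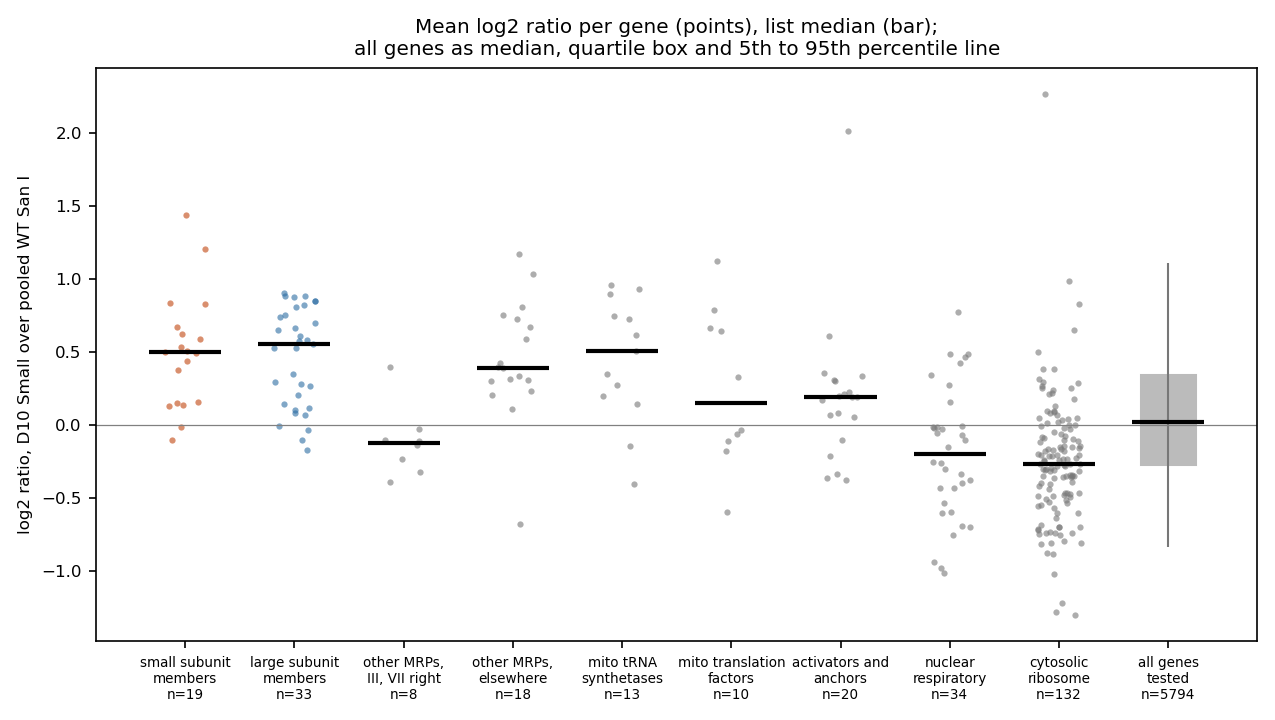
Mean log2 ratio of D10 Small over the pool for the genes of each list, with each list's median. The small and large subunits have medians of 0.50 and 0.56, synthetases 0.51, respiratory chain genes -0.20 and cytosolic ribosomal proteins -0.27.

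Of regulators linked to mitochondrial genes, HAP4, the activating subunit of the Hap complex, had log2 ratios of 1.37, 1.30, 1.36 and 1.15 (mean 1.29 ± 0.10, SD, n = 4, limma's adjusted p = 1.01e-07). PUF3, an RNA-binding protein whose known targets include messages for mitochondrial ribosomal proteins, had 0.33, 0.33, 0.40 and 0.43 (mean 0.37 ± 0.05, SD, n = 4, limma's adjusted p = 1.43e-05). Both genes were higher on every array. Of the partners of HAP4, HAP5 was at 0.55 ± 0.11 and HAP3 at 0.26 ± 0.09, both higher, while HAP2 was lower at -0.30 ± 0.05. HAP1, a regulator that responds to heme, was higher at 0.38 ± 0.10 (SD, n = 4).

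The nuclear genes for the respiratory chain and ATP synthase, whose complexes also take in the products of the mitochondrial ribosome, went mostly the other way. Of 34 genes, 8 were higher (23.5%) and 19 were lower (55.9%), and the median ratio was -0.20. Of all genes tested, 43.2% were higher and 39.5% lower. The highest were SDH1 at 0.78 ± 0.03 and SDH2 at 0.49 ± 0.09, subunits of succinate dehydrogenase, which contains no mitochondrially encoded subunit. The lowest were QCR8, of the cytochrome bc1 complex, at -1.01 ± 0.10 and ATP5, of ATP synthase, at -0.98 ± 0.12 (SD, n = 4).

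Cytosolic ribosomal protein genes were also mostly lower, 92 of 132 (69.7%), with 19 higher (14.4%) and a median of -0.27. Over all genes tested 39.5% were lower and 43.2% higher. RPS14B stood at 2.27 ± 0.08 and RPL8A, on VIII left, at 0.99 ± 0.05, against RPS0A, on VII right, at -1.30 ± 0.19 and RPL13B at -1.28 ± 0.20 (SD, n = 4). Many of these genes have near-identical copies, so a probe may read both. The copies of the named genes were at -0.81 (RPS14A, on III right), -0.74 (RPL8B), -0.60 (RPS0B) and -0.48 (RPL13A). For RPS14B and RPL8A the copy thus had the opposite sign, and for RPS0A and RPL13B the same sign. Off the 5 arm stretches left out above, 83 of 118 were lower, with the median again at -0.27.

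Messages of the mitochondrial genome were below background in D10 Small. On every array its 8 protein genes all failed to pass background in D10 Small. In the pool COX1, COX3, COB, ATP6 and OLI1 were above background on all 4 arrays, ATP8 on 3 and COX2 on 1. Both OLI1 and COB entered the tests through the pool's signal alone, so no p-value is given for them. The level of OLI1, a subunit of ATP synthase, was lower in D10 Small by at least 124.88-fold, and that of COB, cytochrome b, by at least 4.13-fold. These bounds set the pool's mean against the dimmest D10 Small signal above background, and a dye bias cannot be told apart from them without swapped dyes. VAR1, the small-subunit protein encoded by mitochondrial DNA, was not above background in either channel on any array and has no ratio.

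**Figure D5:**
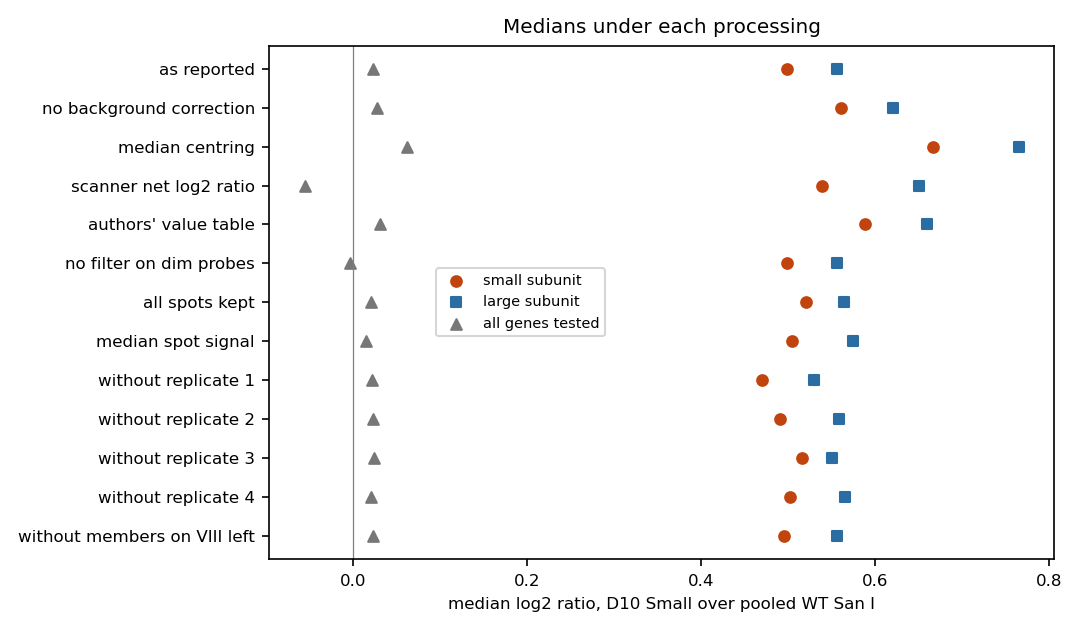
Median log2 ratio of D10 Small over the pool for the small subunit, the large subunit and all genes tested, under each processing of the arrays. The medians of the subunits stay between 0.47 and 0.77 and that of all genes between -0.055 and 0.061.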

How the data were processed

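The deposited scanner files give linear spot intensity and local background for both channels, per the file headers. The scanner software is not given in the sources used here. Signals were corrected with normexp (offset 50), loess-normalised within each array (control spots had weight 0), and expressed as log2 D10 Small over pool. Each gene probe has 7 spots. Spots outside the quartiles by 1.42 interquartile ranges (5.88% to 7.93% per array) were left out and the rest averaged. Background was passed by a spot whose net signal exceeded the mean of 153 negative controls by 2.6 SD. A gene was tested when most of its spots passed in at least 1 channel on 3 arrays, which kept 5794 genes and left out 462. Ratios were tested against 0 with limma 3.58.1 in R 4.3.3, adjusted over all tested genes. In simulated data with 5841 genes, 100% of 50 genes at a log2 ratio of 0.5 and 0.1064% of 5641 unchanged genes were called. A true 0.5 was fitted at a median of 0.43. Only bright genes were changed there, in equal numbers up and down, and no spread between control cultures was simulated. In the real arrays 43.2% of genes were called higher and 39.5% lower, so the simulated rates may not carry over to them or to dim genes. The authors' value table holds log2 ratios, as deposited, with medians of 0.043, 0.029, 0.032 and 0.028 over the tested genes. Against the ratios used here its columns had r of 0.965 to 0.972 and slopes of 1.17 to 1.26, which gives the direction. How it was normalised is not stated.

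The members and lists were chosen with earlier results of these data known. Genes named are, in each subunit, the 6 highest and 3 lowest and MRP4, of each other list up to 2 highest and 2 lowest past the threshold, and OLI1, COB, VAR1, PUF3 and HAP4. Other members are given by their means. All 52 members and 5756 probes matched the RefSeq annotation by systematic name. It served for gene order and length only, since the files name no build.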

Additional observations from a re-analysis of the deposited data

Results flagged for a closer look

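In 4 of 89 genes examined, 1 array stood apart from the other 3 by more than Dixon's critical value for 4 samples. Chance flags about 1 in 20 groups of 4. MRPL1, of the large subunit, had a log2 ratio of 0.84 on array 1 and 0.73 on each of the others. PET123, of the small subunit, had 0.89 on array 3 and 1.07 to 1.10 on the others. MEF2, a factor that recycles ribosomes, had -0.71 on array 1 and -0.56 to -0.54 on the others. MRPL25, of the large subunit on VII right, had -0.15 on array 1 and -0.10 to -0.093 on the others. Direction was the same on all 4 arrays in each of these genes.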

How the results depend on the processing

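The count of genes higher in D10 Small stayed between 43 and 49 of 52 in the alternatives run on all 52. Without background correction the medians were 0.62 over the members, 0.56 in the small subunit and 0.62 in the large subunit. Under median centring they were 0.73, 0.67 and 0.77, with 1 member lower. In the scanner's net ratio the members' median was 0.63 and the large subunit's 0.65, the small minus large difference was -0.11, and 5 members were lower. From the authors' deposited values the medians of members, small and large subunit were 0.64, 0.59 and 0.66. Leaving out 1 array at a time gave members' medians of 0.52 to 0.55, with 43 to 46 higher. Median centring turned the direction of MRPL10 (0.15), MRPL35 (0.071), MRPL49 (0.17), MRPS8 (0.22), DIA4 (0.071), IMG2 (0.065), MRPL9 (0.14), RSM27 (0.19) and MRPS35 (0.0091). It also gave 3 higher and 2 lower among the 8 ribosomal genes on III and VII right, 1 lower synthetase, 3 lower activators and anchors and 10 higher cytosolic ribosomal proteins. MRPL10 (-0.21) and MRPL49 (-0.11) passed as lower in the net ratio, and MRPL4 passed as higher under median centring (0.31) and with all spots kept (0.079). Of the 48 called ratios, median centring took 13 past 1.5 times their size, the authors' deposited values 8, the net ratio 7 and no background correction 3. The cause of these changes was not tested. Alternatives for the lists other than the members were chosen after seeing the data. Each ratio was taken within its own array. No pairing with separate WT San I cultures was possible, because the pool is a single sample. A slide block was not run, since no second slide is recorded. Signal close to background limits MRPL33 and leaves VAR1 unmeasured.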
